A study of Mus musculus with 6 samples.

Results

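The genes described here make heme or bring in the iron for it: Alas1, Alas2, Alad, Uros, Urod, Cpox, Ppox and Fech, which encode enzymes of heme synthesis, and Tfrc, which encodes the transferrin receptor. They were chosen by symbol, and all 9 of 9 are among the 11489 genes of the deposited table. RNA of F4/80+ cells of mouse bone marrow was sequenced after flow cytometry in 3 libraries of F4/80+ Epor-eGFP+ cells and 3 libraries of F4/80+ Epor-eGFP- cells. F4/80, encoded by Adgre1, marks macrophages and some other myeloid cells in mice, and eGFP reports on Epor, which encodes the erythropoietin receptor. The labels call the cells of both groups erythroblastic island macrophages, the macrophages around which red cell precursors mature. They name no strain, age or sex of the mice and no structure of the reporter allele, and give no word on whether each library had its own mouse, so the p-values cover the spread among these libraries only, which may be technical.

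Heme synthesis starts in the mitochondrion, where ALAS1 in most cells, or ALAS2 in red cell precursors, joins glycine to succinyl-CoA. ALAD, UROS and UROD act in the cytosol, and CPOX, PPOX and FECH finish the ring and insert iron at the mitochondrion. Red cell precursors take up that iron as transferrin bound to TFRC, while macrophages also gain iron by breaking down the heme of ingested red cells. When iron is scarce, iron regulatory proteins bind stem-loops called iron responsive elements, which blocks translation when the element lies before the coding region, as in Alas2, and stabilises the mRNA when it lies after it, as in Tfrc.

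Levels are in FPKM (fragments per length of transcript and per library), a unit that keeps no read counts, so depth is unknown. Libraries carry the number of their column (0, 1 or 2), and total FPKM ran from 467176 to 501037 in Epor-eGFP+ libraries and from 505141 to 519650 in Epor-eGFP- libraries. Epor averaged 5.96 ± 2.26 FPKM in Epor-eGFP+ and 0.335 ± 0.105 FPKM in Epor-eGFP- libraries, without overlap, and Adgre1 averaged 167 ± 65.5 FPKM in Epor-eGFP+ against 136 ± 3.85 FPKM in Epor-eGFP- (limma adjusted p = 0.463). The 17 macrophage markers summed to 2752 to 9732 FPKM in Epor-eGFP+ libraries and to 647 to 875 FPKM in Epor-eGFP- libraries, with 14 higher and 0 lower. The 23 measured erythroid markers, a list without heme enzymes, summed to 610 to 2046 FPKM in Epor-eGFP+ libraries and to 70.2 to 793 FPKM in Epor-eGFP- libraries, with 18 higher and 0 lower. The 7 promyelocyte markers summed to 8029 to 9984 FPKM in Epor-eGFP+ against 1682 to 3058 FPKM in Epor-eGFP- (6 higher, 0 lower), the 11 measured neutrophil markers to 13175 to 17131 FPKM in Epor-eGFP+ against 24684 to 38974 FPKM in Epor-eGFP- (0 higher, 10 lower), and the 8 monocyte markers to 1245 to 1557 FPKM in Epor-eGFP+ against 3005 to 4233 FPKM in Epor-eGFP- (0 higher, 8 lower). No measured marker of these 5 lists was at 0 in any library, and transcripts from each list were thus detected in both sorted groups. Some were close to 0, such as Hba-a2 at 0.00195 FPKM and Cldn13 at 0.0142 FPKM in Epor-eGFP- library 1. Both genes are named after their values were seen. A value above 0 alone does not show that a cell type was present. The 8 eosinophil markers summed to 6379 to 15002 FPKM in Epor-eGFP+ against 13463 to 21884 FPKM in Epor-eGFP- (1 higher, 5 lower). The eosinophil granule gene Prg2, also named after its values were seen, was listed at 0 in Epor-eGFP+ library 0. The mast cell and basophil (6 genes), megakaryocyte (6) and lymphoid (7) lists summed to at most 1006 FPKM in any library. Of the mast cell and basophil markers 0 were higher and 4 lower, and of the megakaryocyte markers 1 was higher and 0 lower. Among the 6 tested lymphoid markers 2 were higher and 0 lower. For comparison with all these lists, 22.7% of all tested genes were higher and 26.3% lower. How far each cell type carries the values below was not tested.

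Enzymes of heme synthesis and the transferrin receptor were higher in Epor-eGFP+ cells. Of the 9 genes, 7 rose, 0 fell and 2 (Alas2 and Ppox) did not pass the test, where 22.7% of the 10964 tested genes rose and 26.3% fell, 49.0% in all (limma on log2(FPKM + 1), adjusted p under 0.05). Over all tested genes 46.3% of the called genes were higher, and this share was 59.5% when the libraries were scaled to an equal FPKM total. Every log2 fold change of the 9 was above 0, so 0 fell at an unadjusted p either, and their median was 1.07, against −0.01 over all tested genes. The groups did not overlap in 7 of the 9, all higher in Epor-eGFP+, where 28.4% of tested genes were higher and 31.9% lower without overlap. All 9 were higher in Epor-eGFP+ in each of the 3 comparisons of libraries with the same number. The share of all tested genes that were so was not determined. In bulk samples such as these, more cells that express a gene and more RNA per cell cannot be told apart.

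**Figure D1:**
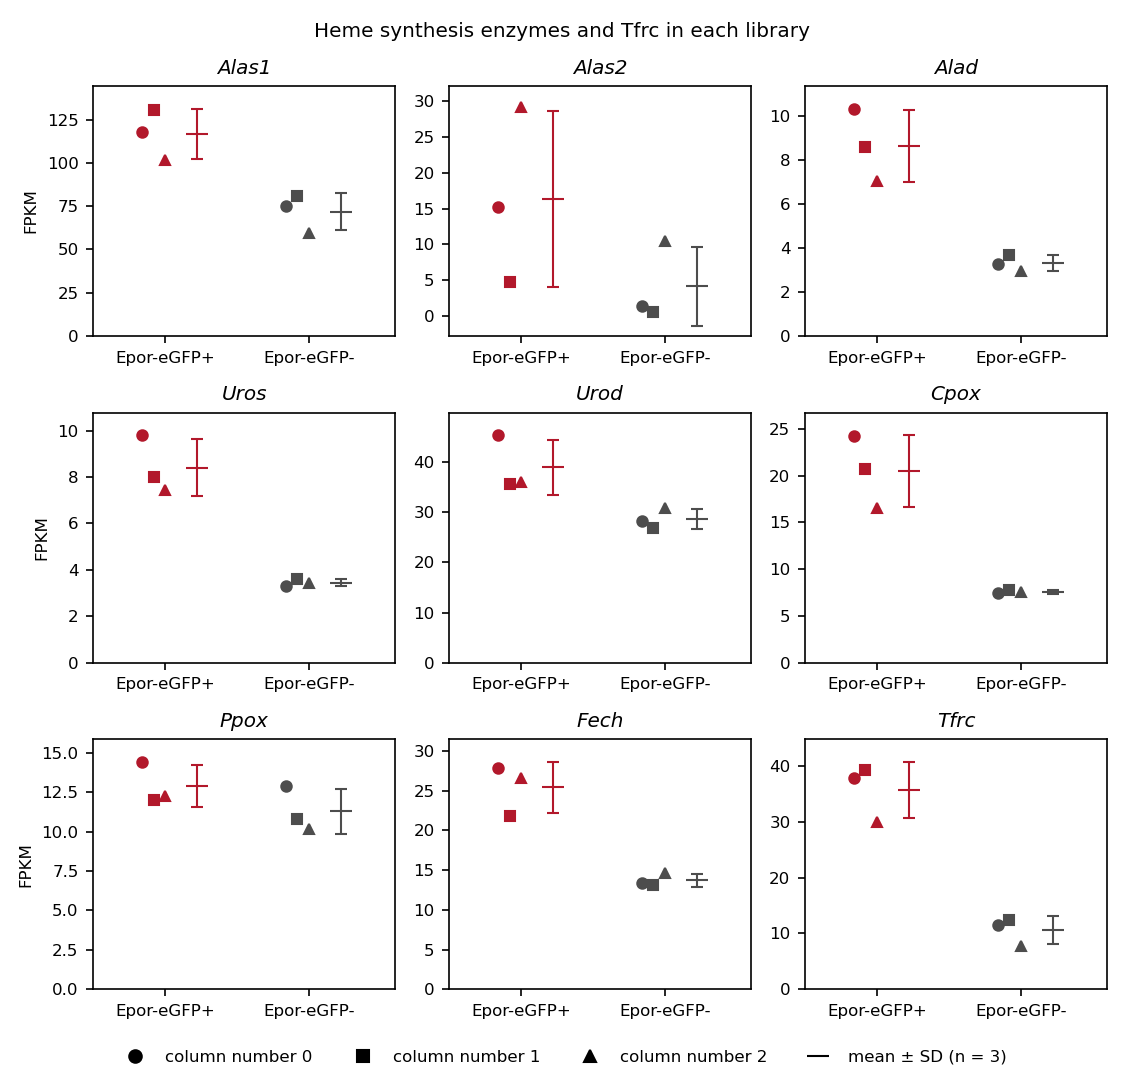
FPKM of the 9 genes (linear axis, a scale for each gene) in the 3 Epor-eGFP+ libraries (red, left) and the 3 Epor-eGFP- libraries (grey, right). Symbols mark the column number, and bars give the mean and SD over 3 libraries. The groups overlap in Alas2 and Ppox, and Alas2 has the widest spread relative to its mean within each group.

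Alas1, the form of the rate-limiting enzyme that most cells use, was the most abundant of the 9 transcripts in both groups and rose in Epor-eGFP+ cells. It was at 118, 131 and 102 FPKM in libraries 0, 1 and 2 of Epor-eGFP+ cells, against 75.1, 80.8 and 59.7 FPKM in libraries 0, 1 and 2 of Epor-eGFP- cells. Every Epor-eGFP+ library lay above every Epor-eGFP- library, and in both groups library 1 was highest and library 2 lowest. The means were 117 ± 14.5 FPKM in Epor-eGFP+ and 71.9 ± 10.9 FPKM in Epor-eGFP- libraries (SD, n = 3 per group), a log2 fold change of 0.70 (SE 0.14, limma adjusted p = 0.00663). Without the libraries numbered 0 of both groups its adjusted p was 0.0818 at a log2 fold change of 0.72. In GRCm38, the build of all positions given here, Alas1 occupies bases 106233455 to 106248654 of the minus strand of chromosome 9, and 465 of its 6174 exonic bases are shared with an antisense gene that is not analysed here.

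Alas2, the erythroid form, was higher on average but varied more between libraries, relative to its mean, than any other of the 9 genes. It was at 15.3, 4.73 and 29.2 FPKM in libraries 0, 1 and 2 of Epor-eGFP+ cells, against 1.37, 0.539 and 10.5 FPKM in libraries 0, 1 and 2 of Epor-eGFP- cells. The groups overlapped, since Epor-eGFP- library 2 lay above Epor-eGFP+ library 1, and the highest library was 6.18 times the lowest within Epor-eGFP+ and 19.5 times within Epor-eGFP-. The means were 16.4 ± 12.3 FPKM in Epor-eGFP+ and 4.14 ± 5.53 FPKM in Epor-eGFP- libraries (SD, n = 3 per group), a log2 fold change of 2.02 that did not pass (SE 0.86, limma adjusted p = 0.0901). Libraries with the same number deviated together, and with the number as a replicate block Alas2 passed (SE 0.27, adjusted p = 0.00397), so that 8 of the 9 genes rose, beside 28.0% of all tested genes, and 0 fell, beside 30.4%. Between libraries of the same number the FPKM ratio was 11.1 for number 0, 8.77 for number 1 and 2.78 for number 2. Alas2 also passed without Epor-eGFP+ library 1 (log2 fold change 2.67, adjusted p = 0.0444) and without Epor-eGFP- library 2 (2.88, adjusted p = 0.0205) or without both libraries numbered 2 (2.34, adjusted p = 0.0169).

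The 2 forms of the enzyme were thus present in unequal amounts in every library, with Alas1 above Alas2. Alas2 made up 11.5%, 3.49% and 22.3% of the summed FPKM of both genes in libraries 0, 1 and 2 of Epor-eGFP+ cells, against 1.80%, 0.663% and 15.0% in libraries 0, 1 and 2 of Epor-eGFP- cells. The log2 ratio of Alas2 + 1 over Alas1 + 1 averaged −3.05 ± 1.39 in Epor-eGFP+ and −4.38 ± 1.75 in Epor-eGFP- libraries, a difference of 1.33 that was within the spread between libraries (exact two-sided permutation test, p = 0.3, where 3 against 3 libraries cannot go below 0.1). Paired by number the difference was the same and p was 0.25, the smallest that 3 pairs allow. The summed level of both genes varied little within the groups, at 133 ± 2.2 FPKM in Epor-eGFP+ and 76.0 ± 5.58 FPKM in Epor-eGFP- libraries.

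Alas2 spans bases 150547375 to 150570638 of the plus strand of chromosome X, and 372 of its 2403 exonic bases are shared with Apex2, a DNA repair gene, and a miRNA gene on the opposite strand. Apex2 averaged 4.15 FPKM in Epor-eGFP+ and 4.15 FPKM in Epor-eGFP- libraries (limma adjusted p = 0.980). Because Alas2 is the erythroid form and its mRNA is under control by iron, its regulatory sequences are shown: a stretch before its RefSeq start, with a GATA word in capitals, and the iron responsive element of its 5′ UTR, with the 6 bases of the loop in capitals. The promoter stretch is chrX:150547225-150547374 on the plus strand. The element was found by a search of GENCODE M21 transcripts for a C, a stem of 5 pairs and the loop CAGTGN, and spans a splice junction, from 150547458 to 150552150 on the same chromosome.
Alas2 promoter: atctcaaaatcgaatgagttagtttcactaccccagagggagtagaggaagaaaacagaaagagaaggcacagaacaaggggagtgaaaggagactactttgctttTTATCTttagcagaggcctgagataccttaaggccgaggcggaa
Alas2 iron responsive element: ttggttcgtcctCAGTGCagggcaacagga

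The cytosolic enzymes rose, Alad and Uros more than Urod. Alad, which joins 2 molecules of aminolevulinic acid into porphobilinogen, was at 10.4, 8.59 and 7.06 FPKM in libraries 0, 1 and 2 of Epor-eGFP+ cells, against 3.29, 3.70 and 2.96 FPKM in libraries 0, 1 and 2 of Epor-eGFP- cells. Uros, which closes the porphyrin ring, was at 9.79, 7.98 and 7.44 FPKM in libraries 0, 1 and 2 of Epor-eGFP+ cells, against 3.31, 3.60 and 3.41 FPKM in libraries 0, 1 and 2 of Epor-eGFP- cells. Urod, which decarboxylates the ring, was at 45.4, 35.7 and 36.1 FPKM in libraries 0, 1 and 2 of Epor-eGFP+ cells, against 28.3, 26.8 and 30.9 FPKM in libraries 0, 1 and 2 of Epor-eGFP- cells. In all 3 genes the groups did not overlap and Epor-eGFP+ library 0 was the highest. Alad averaged 8.66 ± 1.65 FPKM in Epor-eGFP+ against 3.31 ± 0.371 FPKM in Epor-eGFP- (log2 fold change 1.15, SE 0.14, limma adjusted p = 0.00120), and Uros 8.40 ± 1.23 FPKM in Epor-eGFP+ against 3.44 ± 0.148 FPKM in Epor-eGFP- (1.07, SE 0.11, adjusted p = 0.000707). Urod, the more abundant transcript, averaged 39.1 ± 5.50 FPKM in Epor-eGFP+ against 28.7 ± 2.04 FPKM in Epor-eGFP- (0.43, SE 0.11, adjusted p = 0.0179). The call of Urod was lost without Epor-eGFP- library 0 (adjusted p = 0.0598) or Epor-eGFP- library 1 (0.0536), and without both libraries numbered 0 (0.157) or 1 (0.0527). On the minus strand, Alad spans bases 62509169 to 62519918 and Urod bases 116989965 to 116994413 of chromosome 4, and Uros bases 133686243 to 133710072 of chromosome 7.

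Of the enzymes that finish heme at the mitochondrion, Cpox rose most, Fech rose and Ppox did not pass. Cpox, which oxidises coproporphyrinogen, was at 24.2, 20.8 and 16.6 FPKM in libraries 0, 1 and 2 of Epor-eGFP+ cells, against 7.42, 7.82 and 7.55 FPKM in libraries 0, 1 and 2 of Epor-eGFP- cells. Its Epor-eGFP- libraries were nearly equal, while library 0 was highest and library 2 lowest in Epor-eGFP+. The means were 20.5 ± 3.81 FPKM in Epor-eGFP+ and 7.60 ± 0.204 FPKM in Epor-eGFP- libraries (log2 fold change 1.31, SE 0.13, limma adjusted p = 0.000694). Fech, the ferrochelatase that inserts iron, was at 27.8, 21.8 and 26.7 FPKM in libraries 0, 1 and 2 of Epor-eGFP+ cells, against 13.4, 13.1 and 14.7 FPKM in libraries 0, 1 and 2 of Epor-eGFP- cells. The groups of Fech did not overlap either, and its means were 25.4 ± 3.20 FPKM in Epor-eGFP+ and 13.7 ± 0.824 FPKM in Epor-eGFP- libraries (0.84, SE 0.11, adjusted p = 0.00130). Ppox, the oxidase between them, was at 14.4, 12.0 and 12.2 FPKM in libraries 0, 1 and 2 of Epor-eGFP+ cells, against 12.9, 10.8 and 10.2 FPKM in libraries 0, 1 and 2 of Epor-eGFP- cells. Here Epor-eGFP- library 0 lay above Epor-eGFP+ libraries 1 and 2, and the means of 12.9 ± 1.34 FPKM in Epor-eGFP+ and 11.3 ± 1.41 FPKM in Epor-eGFP- libraries gave a log2 fold change of 0.18 (SE 0.11, adjusted p = 0.222, and 0.0535 with the replicate block). Ppox spans bases 171275990 to 171281186 of chromosome 1 (minus strand), and 791 of its 4515 exonic bases are shared with B4galt3, a gene on the opposite strand that fell by 0.56 on the log2 scale (adjusted p = 0.00113). Whether reads of B4galt3 entered the Ppox value was not tested. In Cpox, 204 exonic bases are shared with Gpr15, which was at 0.879 FPKM in Epor-eGFP+ and 2.75 FPKM in Epor-eGFP- libraries on average.

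On the plus strand of chromosome 16, Cpox spans bases 58670292 to 58717636. The stretch before its RefSeq start, chr16:58670047-58670196 on the plus strand, is shown because it holds 2 overlapping GATA words, in capitals, read on the opposite strand.
Cpox promoter: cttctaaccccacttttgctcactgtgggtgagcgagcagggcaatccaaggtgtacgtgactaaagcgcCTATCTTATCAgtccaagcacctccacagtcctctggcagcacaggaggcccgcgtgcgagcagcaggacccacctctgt
Over the 250 bases before each RefSeq start, 8 of the 9 genes had a window, and a GATA word on either strand was found in Alas2, Cpox and Uros (the word AGATAA or its variants TGATAA and AGATAG and also TGATAG). That is 37.5% of the 8, beside 29.7% of 27025 genes with a window, a share near the background. The word CCNCNCCC, which fits factors of the KLF family, was found on either strand in 5 of the 8, Alad, Alas1, Alas2, Tfrc and Uros, beside 48.5% of genes. The palindromic motif of the factor NRF1 was found in Alas1 and Uros, beside 4.23% of genes, and TGAGTCA, which fits NFE2, in 0 of the 8, beside 5.16%. The words were chosen with the values of these genes known, and a match describes letters only.

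**Figure D2:**
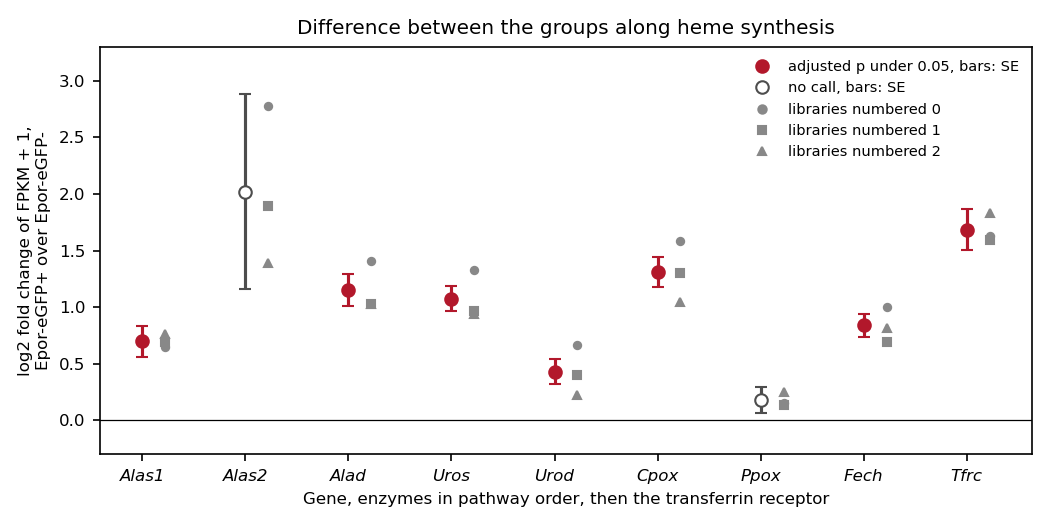
Log2 fold change of FPKM + 1, Epor-eGFP+ over Epor-eGFP-, for the enzymes in pathway order and Tfrc, with the SE of the limma fit as bars. Small grey symbols give the difference between the libraries of each column number, all above 0; Alas2 has the widest bar and Ppox the smallest change.

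Tfrc, the receptor that takes up iron-loaded transferrin, had the largest rise among the 7 called genes. It was at 37.9, 39.3 and 29.9 FPKM in libraries 0, 1 and 2 of Epor-eGFP+ cells, against 11.6, 12.3 and 7.69 FPKM in libraries 0, 1 and 2 of Epor-eGFP- cells. The lowest Epor-eGFP+ library lay well above the highest Epor-eGFP- library, and in both groups library 2 was the lowest. The means were 35.7 ± 5.06 FPKM in Epor-eGFP+ and 10.5 ± 2.50 FPKM in Epor-eGFP- libraries (SD, n = 3 per group), a log2 fold change of 1.68 (SE 0.18, limma adjusted p = 0.000868). Between libraries of the same number the FPKM ratio was 3.26, 3.19 and 3.89 for numbers 0, 1 and 2. The genes nearest to Tfrc across the 6 libraries were Slc16a1, a lactate transporter (root mean square difference between centred log2 values 0.10), Prss57, a serine protease of granulocytes (0.11), and Nkg7, a granule protein gene of cytotoxic lymphocytes (0.13). Tfrc spans bases 32608920 to 32632794 of the same strand and chromosome as Cpox. Its 3′ UTR held 4 elements that fit the iron responsive search, which are shown because iron sets the stability of this mRNA through elements of this kind. The search is strict, so elements with another stem or loop would be missed, and whether these 4 act was not tested. They lie at 32631219, 32631598, 32631663 and 32631710 (first base of each), and the 6 loop bases are in capitals.
Tfrc element at 32631219: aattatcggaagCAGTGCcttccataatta
Tfrc element at 32631598: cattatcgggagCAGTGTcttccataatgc
Tfrc element at 32631663: ctatatcggagaCAGTGAtctccatatgtt
Tfrc element at 32631710: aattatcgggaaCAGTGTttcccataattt
In all, 160 of 21901 protein-coding genes (0.731%) held such an element in a UTR, and in the list of iron regulatory genes Fth1, Ftl1 and Slc40a1 were among those that held 1 in the 5′ UTR.

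By the exact two-sided permutation test on FPKM, p was 0.1 for each of the 7 called genes, the smallest that 3 against 3 libraries allow, 0.2 for Alas2 and 0.3 for Ppox. FPKM is per length, so levels can be set side by side between genes. In Epor-eGFP+ libraries the order of the mean FPKM was Alas1, Urod, Tfrc, Fech, Cpox, Alas2, Ppox, Alad and Uros. The ranges of neighbours overlapped except between Alas1 and Urod, between Tfrc and Fech and between Ppox and Alad. In Epor-eGFP- libraries the order was Alas1, Urod, Fech, Ppox, Tfrc, Cpox, Alas2, Uros and Alad, and only Alas1, Urod and Fech were each separated from the next gene. The 8 enzyme genes together summed to 265, 242 and 237 FPKM in libraries 0, 1 and 2 of Epor-eGFP+ cells, against 145, 147 and 139.9 FPKM in libraries 0, 1 and 2 of Epor-eGFP- cells, a ratio of means of 1.72. Alas1 was the largest single part of each of these sums.

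The 9 genes fell into different orders of the libraries. Alas2 was highest in library 2, next in library 0 and lowest in library 1 in both groups, an order that 9.47% of tested genes showed. The 5 globin genes in the table had the same order, with summed FPKM of 727, 216 and 1686 in libraries 0, 1 and 2 of Epor-eGFP+ cells, against 63.1, 32.2 and 771 in libraries 0, 1 and 2 of Epor-eGFP- cells. The genes nearest to Alas2 across the 6 libraries were the globins Hba-a1, Hbb-b1 and Hbb-b2, at root mean square differences of 0.49, 0.51 and 0.58, wider than for any other of the 9 genes. Globin transcripts, which remain in maturing red cells, thus moved with Alas2, and their part in its values was not tested. Macrophage markers had that order in Epor-eGFP+ libraries too, 17 of 17, beside 23.9% of all tested genes. In both groups 3 of 17 had it.

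Alas1 and Tfrc shared the opposite order, with library 1 highest, then 0, then 2, in both groups, as 12.5% of tested genes did. The same order in both groups was found in 14 of 17 cell division genes, in 5 of 7 promyelocyte markers and in 5 of 6 megakaryocyte markers. The cell division genes summed to 1474, 1645 and 1228 FPKM in libraries 0, 1 and 2 of Epor-eGFP+ cells, against 1179, 1429 and 1044 FPKM in libraries 0, 1 and 2 of Epor-eGFP- cells, with 3 of 17 higher, 0 lower and a median log2 fold change of 0.26. Of all tested genes 22.7% were higher and 26.3% lower. With the replicate block 12 of the 17 were higher, while without Epor-eGFP+ library 0 or Epor-eGFP- library 0 only 1 was, and without both 0 were. Ccnb1, a mitotic cyclin (0.80, SE 0.15), Cdk1, its kinase (0.48, SE 0.12), and Aurkb, a mitotic kinase (0.40, SE 0.13), were the 3 that rose (limma adjusted p = 0.00549 to 0.0434). The other 6 enzymes, Alad, Uros, Urod, Cpox, Ppox and Fech, were highest in library 0 within Epor-eGFP+. Klf1 and every other tested regulator listed below except Nrf1 had this peak too, as had most erythroid markers outside the globins. It was thus shared by Nfe2, which was lower in Epor-eGFP+, and by Gata1, which had no call. The share of all tested genes with this peak was not determined. How far dividing cells, promyelocytes or erythroid cells carry these transcripts was not tested.

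**Figure D3:**
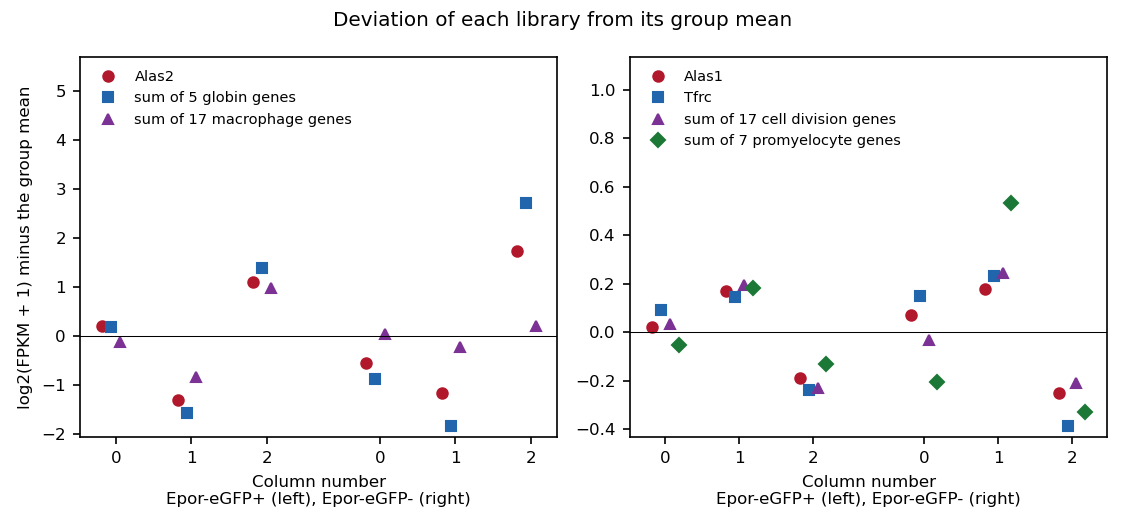
Deviation of log2(FPKM + 1) from the group mean in each library, with Epor-eGFP+ libraries left and Epor-eGFP- libraries right in each panel. Alas2 is plotted with the sums of 5 globin genes and of 17 macrophage markers, and Alas1 and Tfrc with the sums of 17 cell division genes and 7 promyelocyte markers; Alas2 and the globins are highest in library 2, Alas1 and Tfrc in library 1, in both groups.

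Regulators of erythroid heme genes and of Alas1 did not all change in the same direction. Among 9 tested regulators 2 rose, 2 fell and 5 did not pass, at a median log2 fold change of 0.04. These counts are near the shares over all tested genes, 22.7% higher and 26.3% lower. Klf1, an erythroid activator, was at 23.8, 18.2 and 15.9 FPKM in libraries 0, 1 and 2 of Epor-eGFP+ cells, against 1.70, 1.84 and 1.08 FPKM in libraries 0, 1 and 2 of Epor-eGFP- cells (2.99, SE 0.18, limma adjusted p = 0.000261). Tal1, a partner of GATA1, rose by 0.98 (SE 0.24, adjusted p = 0.0143). Gata1 itself, named after its values were seen, was at 22.0, 17.8 and 16.7 FPKM in libraries 0, 1 and 2 of Epor-eGFP+ cells, against 21.4, 18.1 and 15.5 FPKM in libraries 0, 1 and 2 of Epor-eGFP- cells. Its groups overlapped (0.04, SE 0.14, adjusted p = 0.829), and eosinophils, mast cells and megakaryocytes also use this factor. Nfe2, which acts in erythroid and megakaryocytic cells, fell by 1.09 (SE 0.09), and Nrf1, an activator of Alas1 and of nuclear genes for mitochondria, by 0.29 (SE 0.08, adjusted p = 0.0239). With a common total the call of Nrf1 was lost (adjusted p = 0.148), and with the replicate block 4 regulators were higher. Without Epor-eGFP+ library 0 or without both libraries numbered 0, 1 was higher and 1 lower.

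Among other genes of mitochondrial heme synthesis, the transporter genes Abcb6 and Abcb10 rose while Tspo and Slc25a28 fell. In this list of 13, 5 rose, 3 fell and 5 did not pass, at a median log2 fold change of 0.21. Beside this, 22.7% of all tested genes were higher and 26.3% lower. Among them Abcb6, a porphyrin transporter (0.98, SE 0.12), and Abcb10, a transporter of the inner membrane needed for heme synthesis in red cells (0.86, SE 0.13), rose (limma adjusted p = 0.00132 and 0.00268). Tspo, an outer membrane protein that binds porphyrins, fell by 0.52 (SE 0.09), and Slc25a28, the mitoferrin of non-erythroid cells, by 0.51 (SE 0.09). Slc25a37, the mitoferrin of red cell precursors, named after its values were seen, was at 23.5, 16.8 and 16.2 FPKM in libraries 0, 1 and 2 of Epor-eGFP+ cells, against 17.6, 14.6 and 14.4 FPKM in libraries 0, 1 and 2 of Epor-eGFP- cells. Its groups overlapped, and it did not pass without the block (0.25, SE 0.15, adjusted p = 0.214) and passed with it (adjusted p = 0.0355). Without Epor-eGFP+ library 0, without Epor-eGFP- library 0 or without both, 3 of the 13 genes were higher.

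Other genes of the transferrin cycle and of iron import rose beside Tfrc, while as many of the list had no call. In this list 13 genes were tested, of which 6 rose, 1 fell and 6 did not pass, beside 22.7% higher and 26.3% lower over all tested genes, at a median log2 fold change of 0.74, and with the replicate block 9 rose and 1 fell. Slc11a2, which carries iron out of the endosome in the transferrin cycle, was at 11.5, 10.7 and 12.2 FPKM in libraries 0, 1 and 2 of Epor-eGFP+ cells, against 4.71, 4.66 and 4.89 FPKM in libraries 0, 1 and 2 of Epor-eGFP- cells (1.11, SE 0.08, limma adjusted p = 0.000330). Steap3, the ferrireductase of that endosome in red cell precursors, and Tfr2, the second transferrin receptor, both named after their values were seen, rose by 1.05 (SE 0.10) and 1.09 (SE 0.25). Trf, transferrin itself, was at 406, 262 and 934 FPKM in libraries 0, 1 and 2 of Epor-eGFP+ cells, against 149, 127 and 147 FPKM in libraries 0, 1 and 2 of Epor-eGFP- cells (1.71, SE 0.42, adjusted p = 0.0142). Trf thus had the order of the macrophage markers in Epor-eGFP+ libraries, as 23.9% of all tested genes did, not that of Tfrc. Slc39a8, a metal importer, rose by 1.55 (SE 0.18), and Exoc6, an exocyst subunit needed for recycling of the transferrin receptor, fell by 0.31 (SE 0.08), a call lost with a common total (adjusted p = 0.108). Without both libraries numbered 0, 3 genes of this list were higher and 0 lower.

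Of 7 tested genes of the iron regulatory proteins, ferritins and other mRNAs with iron responsive elements, 5 rose and 2 fell (median log2 fold change 0.47). The shares over all tested genes were 22.7% higher and 26.3% lower. Slc40a1, the iron exporter ferroportin (3.77, SE 0.43), and the ferritin genes Fth1 (1.44, SE 0.27) and Ftl1 (1.26, SE 0.35) rose most (limma adjusted p = 0.000992 to 0.0222). Ferritin stores iron, and its genes have processed pseudogenes, so their values are uncertain singly. The genes of the 2 iron regulatory proteins, both of which bind Tfrc mRNA, went in opposite directions. Aco1, which encodes iron regulatory protein 1 and is named after its values were seen, was at 17.2, 15.4 and 22.8 FPKM in libraries 0, 1 and 2 of Epor-eGFP+ cells, against 12.4, 12.3 and 14.0 FPKM in libraries 0, 1 and 2 of Epor-eGFP- cells. It rose by 0.47 (SE 0.14, limma adjusted p = 0.0307), a call lost without Epor-eGFP+ library 0 (0.0645), Epor-eGFP- library 0 (0.0935), Epor-eGFP- library 1 (0.0796) or both libraries numbered 0 (0.174). Ireb2, which encodes iron regulatory protein 2, was at 12.4, 15.0 and 13.1 FPKM in libraries 0, 1 and 2 of Epor-eGFP+ cells, against 17.5, 16.6 and 16.7 FPKM in libraries 0, 1 and 2 of Epor-eGFP- cells. It fell by 0.31 (SE 0.09, adjusted p = 0.0216), a call lost with a common total (adjusted p = 0.104) or upper quartile (0.0607), without Epor-eGFP+ library 0 (0.0865) or 2 (0.05001), without Epor-eGFP- library 0 (0.0796) and without both libraries numbered 0 (0.250) or 2 (0.0764). Neither gene had overlapping groups. Fbxl5, which marks iron regulatory protein 2 for breakdown, fell by 0.68 (SE 0.16, adjusted p = 0.0112). Tfrc, Fth1 and Ftl1 were thus all higher in Epor-eGFP+ when the groups were compared. Inside both groups their libraries ranked in opposite ways. From high to low the ranking was 1, 0, 2 for Tfrc but 2, 0, 1 for Fth1 and Ftl1. Whether the same cells carried more of all 3 transcripts was not tested. Without Epor-eGFP+ library 0 or Epor-eGFP- library 0 the list had 3 higher and 1 lower, and without both libraries numbered 0, 1 higher and 0 lower.

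Among genes that break down or carry heme, those with the largest rises followed a different order of the libraries than most enzymes that make it. Of 12 tested genes of heme breakdown, export, sensing and use, 8 rose, 2 fell and 2 did not pass, at a median log2 fold change of 0.44. Among all tested genes 22.7% were higher and 26.3% lower. Hmox1, the heme oxygenase that opens the ring, was at 983, 440 and 1754 FPKM in libraries 0, 1 and 2 of Epor-eGFP+ cells, against 81.6, 60.6 and 92.6 FPKM in libraries 0, 1 and 2 of Epor-eGFP- cells. It rose by 3.55 (SE 0.46, limma adjusted p = 0.00148). Blvrb, a biliverdin reductase (2.11, SE 0.32), and Slc48a1, which carries heme out of the phagolysosome (1.50, SE 0.27), also rose. All 3 had the order of the macrophage markers within Epor-eGFP+, with their peak in library 2 and their minimum in library 1. Of all tested genes 23.9% had this order in Epor-eGFP+. Bach1, a repressor of Hmox1 that heme releases from DNA, fell by 1.22 (SE 0.13, adjusted p = 0.000861), and Eif2ak1, the heme-regulated kinase that slows translation when heme is low, by 0.25 (SE 0.07, adjusted p = 0.0215, and 0.136 with a common total). Without both libraries numbered 0, 1 gene of this list was higher and 1 lower.

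Assembly of iron-sulfur clusters, which uses the same mitochondrial iron, showed many modest rises. Of 15 genes 11 rose, 1 fell and 3 did not pass, at a median log2 fold change of 0.49, all within −0.23 to 0.98. For this list and the next, the shares over all tested genes were 22.7% higher and 26.3% lower. Hspa9, the mitochondrial chaperone mortalin (0.98, SE 0.11), Bola3 (0.92, SE 0.10) and Glrx5, a glutaredoxin whose loss blocks heme synthesis in zebrafish (0.84, SE 0.09), rose most (limma adjusted p = 0.000749 to 0.000942). Nfu1, a late assembly factor, fell by 0.23 (SE 0.07), a call lost with a common total (adjusted p = 0.263). Of 10 mitochondrial genes outside heme synthesis 7 rose and 0 fell (median 0.32), with Sdha (0.45, SE 0.07), Vdac1 (0.42, SE 0.07) and Ndufs1 (0.38, SE 0.06) at the top. Each of these 10 moved less than Alas1, Alad, Uros, Cpox and Fech. Without both libraries numbered 0, 3 iron-sulfur genes and 0 of the 10 mitochondrial genes were higher, and without Epor-eGFP+ library 0, 7 iron-sulfur genes were. Without both libraries numbered 1, 4 of the 10 mitochondrial genes were higher.

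**Figure D4:**
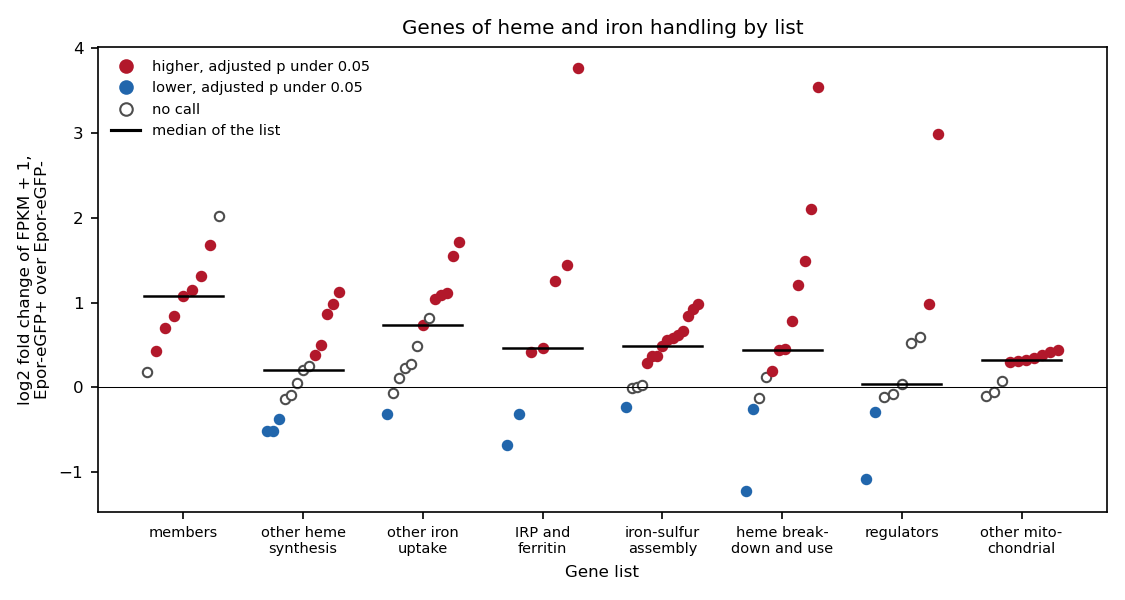
Log2 fold change of FPKM + 1, Epor-eGFP+ over Epor-eGFP-, for each tested gene of 8 lists, coloured by call, with the median of each list as a black line. The median is 1.07 for the 9 genes described here and at most 0.74 for the other lists shown.

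Beside these values, the erythroid markers without heme genes had a median log2 fold change of 2.43. Their largest rises were those of Car1, a carbonic anhydrase of red cells (5.18, SE 0.27), Ermap (3.65, SE 0.16) and Rhd (3.63, SE 0.18), genes of red cell surface proteins (limma adjusted p = 0.000229 for each of the 3). The 5 erythroid markers without a call were all globins, and with the replicate block all 23 were higher. Fold changes of genes near 0 FPKM in Epor-eGFP- are understated on the log2(FPKM + 1) scale, which touches Alas2 and the red cell surface genes more than the other enzymes.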

How the data were processed

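The deposited values are FPKM per gene, made by the authors, and the file header gives the unit. Cufflinks 2.2.1 and TopHat2 2.1.0, with the mm10 build, are named by the submitters' processing notes, as are Trimmomatic 0.35 and also bcl2fastq 2.19.1.403, with no order of steps. For the annotation, the strand setting, any filter and any scaling, the sources used here give nothing. Per the labels' protocols, a TruSeq RNA kit was used. Columns numbered 0 to 2 were assigned to a group, not to a sample, because the labels number samples 1 to 3. The 10964 genes whose 6 libraries averaged 1 FPKM or more were fitted with limma 3.58.1 (R 4.3.3) on log2(FPKM + 1), with group as the only term, eBayes with a mean-variance trend, two-sided tests and Benjamini-Hochberg adjustment over all tested genes at 0.05. The fit was tested on simulated data. Values of single genes were also set beside an exact permutation test over libraries.

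Deviations from the group means correlated at 0.25, 0.38 and 0.35 between libraries with the same number, above the minimum of 0.1 in all 3 pairs, so the number was used as a replicate block in an alternative fit; no label says what it marks. The 9 genes, the lists and the tests were chosen with earlier results of these data known. Genes named are the 9, Epor, Adgre1, of each list up to 3 called genes per direction with the largest change (not printed for the marker lists of cells other than erythroid ones), and the 3 genes nearest to each of the 9 by the root mean square difference of centred log2 values among genes of at least 5 FPKM on average; others are said to be named after their values were seen. Some genes that this rule names are not reported here. Genes that share exons with the 9 are named for that reason. Alternatives were other pseudocounts, filters, scalings, no trend, the block and leaving out libraries. Positions are from GENCODE M21, and promoter sequences from RefSeq (GRCm38.p6; 8 of 9 genes matched).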

Additional observations from a re-analysis of the deposited data

How the results depend on the processing

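Across 18 alternative settings each of the 9 genes stayed higher in Epor-eGFP+, and Alad, Uros, Cpox, Fech and Tfrc kept their calls in all 18. Leaving out libraries gave 5 to 8 called genes of the 9, 482 to 2428 higher and 915 to 2700 lower genes of all tested, and a difference of 0.65 to 2.31 in the log2 ratio of Alas2 over Alas1. The lowest of these counts came without the libraries numbered 0 of both groups (5 of the 9 genes; 482 higher and 915 lower over all tested genes), which leaves 2 libraries per group, and without Epor-eGFP+ library 0 alone 1611 genes were higher. With the replicate block 8 of the 9 genes were higher, with 3066 higher and 3335 lower over all tested genes and an Alas2 over Alas1 difference of 1.33. Among the 9 genes the block changed the call of Alas2 alone. With pseudocounts of 0.1 and 0.5 FPKM the Alas2 over Alas1 difference was 1.88 and 1.58. A common total gave a median log2 fold change of 0.08 over all genes, against −0.01 as deposited. FPKM carry no depth, so no counting error can be given.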

Other observations

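Several of the enzymes had their nearest neighbours outside heme and iron genes, by the root mean square difference of centred log2(FPKM + 1) over 6 libraries among 8192 genes. Nearest to Alas1 were Pfas, a purine synthesis enzyme (0.04), Rsl1d1, a nucleolar protein gene (0.05), and Rpap3, a chaperone adaptor gene (0.05). Among the 3 genes nearest to Alad were Ppan, a ribosome assembly factor (0.08), and Uros (0.09). Among the 3 nearest to Uros were Grwd1, a ribosome assembly factor (0.08), and Bola3 (0.08). Cpox had Alad (0.10), Ttll12 (0.10) and Mettl1, a tRNA methyltransferase (0.11). Fech had Tmem41a (0.06), Rexo2, a mitochondrial exonuclease (0.07), and Txnrd2, the mitochondrial thioredoxin reductase (0.07). Urod had Mtg1 (0.06), Slirp (0.06) and Ntmt1 (0.06), and Ppox had Cep85 (0.05), Ube2g2 (0.06) and Slc30a9 (0.06). These are descriptions over 6 libraries in 2 groups that most called genes separate, and nothing about shared control was tested.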
